A study of Homo sapiens with 12 samples.

Results

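The genes described here are 10 feedback genes of the RAS, RAF, MEK and ERK kinase cascade: SPRY1, SPRY2, SPRY4, SPRED1, SPRED2, DUSP4, DUSP5, DUSP6, ETV4 and ETV5. They were chosen by gene name, and each is 1 of the 59050 names in the count table. After the filter on low counts 16208 genes were tested, among them 9 of these 10 genes. SPRY2 did not pass the filter.

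The study measured RNA by bulk sequencing in MYLA (MyLa) cells, an established cell line of cutaneous T cell lymphoma (CTCL). Its design text asks how romidepsin, a histone deacetylase inhibitor, and afatinib, an irreversible inhibitor of ERBB family kinases, work together. The cells received 3.2 nM romidepsin with 5.7 uM afatinib dimaleate (combination), 3.2 nM romidepsin, 5.7 uM afatinib dimaleate, or DMSO as the vehicle, each for 24 h, and each group had 3 libraries. Interleukin-2 at 20 ng/mL was present throughout, and the volume of DMSO was equal in all groups. Only 1 cell line was used. Separate cultures are not stated for the 3 libraries of a group, and p-values therefore cover just the spread between these libraries, which may be technical.

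Signals from growth factor receptors, and in T cells from the T cell receptor and cytokine receptors, pass through RAS to the kinase ERK. Active ERK raises the transcription of its own inhibitors: Sprouty and SPRED proteins act between receptors, RAS and RAF, and dual-specificity phosphatases (DUSPs) remove phosphate from ERK and related kinases. The ETS factors ETV4 and ETV5 are transcribed when ERK relieves repression by Capicua, and the RNA of the whole group is often used as a readout of ERK activity. The files hold RNA only, with no measure of ERK phosphorylation, protein or cell number.

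Libraries held 8972228 to 12696653 counts. CPM are counts relative to the library total, which was scaled for all values but those of this paragraph. On the unscaled totals 3 counts corresponded to 0.236 to 0.334 CPM, a limit that covers counting error only. Of the 14 T cell markers examined, CD3D, CD3G, TRAC, CD2, IL2RA and CCR4 were counted in every library, whereas CD3E, CD7 and CD5 had at most 4, 2 and 5 counts in any library. The summed level of these 14 markers was 449 to 476 CPM in the combination, 722 to 733 CPM with romidepsin, 1589 to 1603 CPM with afatinib and 1977 to 2119 CPM with DMSO. PTPRC, one of the 14, did not follow that order. It had 205, 254 and 195 counts in the combination and 448, 422 and 515 with romidepsin. With afatinib it had 164, 161 and 162 counts, and with DMSO 277, 206 and 251. TRAC, TRBC2, IL2RG, CCR4, CD247 and CD3D did not separate all groups either. TRAC had 147, 102 and 125 counts with romidepsin and 117, 115 and 127 with afatinib. TRBC2 had 170, 106 and 183 against 153, 172 and 168 in these groups. IL2RG had 295, 391 and 334 counts in the combination and 320, 240 and 357 with romidepsin. Afatinib and DMSO libraries overlapped for CCR4, with 4367, 4319 and 5166 against 5920, 4353 and 5236 counts. They also overlapped for CD247 (805, 698 and 797 against 973, 764 and 807) and CD3D (212, 232 and 251 against 288, 247 and 246). Most of the sum came from IL2RA (2785 to 14960 counts) and CCR4 (1002 to 5920 counts). Of 5 fibroblast markers, DCN and LUM were at 0 in every library, and the summed level, nearly all from COL1A1 and COL3A1, was 15.1 to 17.8 CPM in the combination, 25.3 to 31.4 CPM with romidepsin, 100 to 104 CPM with afatinib and 167 to 190 CPM with DMSO. The part of these shifts in the results below was not tested, and in bulk RNA fewer cells of a type and less RNA per cell cannot be told apart. Keratin reads set 4 libraries apart: KRT5 had 43 counts in combination replicate 1, 126 in afatinib replicate 3, 59 in DMSO replicate 1 and 94 in DMSO replicate 2, against 0 or 1 in the other 8 libraries. The summed level of 10 keratinocyte markers was 184 to 204 CPM in the combination and 195 to 202 CPM with romidepsin. It was 266 to 292 CPM with afatinib and 249 to 300 CPM with DMSO, largely from SFN, TP63 and KRT10. KRT10 did not follow the sum, with 826, 930 and 1015 counts in the combination and 472, 463 and 442 with DMSO. It had 503, 394 and 571 counts with romidepsin and 957, 674 and 937 with afatinib. KRT1 was at 0 in every library.

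Several of the feedback genes were higher in drug-treated cells, also where an ERBB inhibitor was the only drug. In the combination 7 of the 9 tested genes rose against DMSO (SPRY1, SPRY4, SPRED1, SPRED2, DUSP5, ETV4 and ETV5), 1 fell (DUSP4) and DUSP6 was not called. SPRY4 and ETV5 changed most, to 16.4 and 15.7 times their DMSO level. With romidepsin 6 of the 9 rose and 1 fell, and with afatinib 4 of the 9 rose and 1 fell, by edgeR's quasi-likelihood test (Benjamini-Hochberg adjusted p below 0.05, over the 16208 genes).

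These counts stand against a broad background of change. Of all tested genes, 74.3% were called in the combination against DMSO (37.2% higher and 37.1% lower), 62.6% with romidepsin (31.1% higher and 31.5% lower) and 45.4% with afatinib (22.0% higher and 23.3% lower). The median log2 fold change of the 9 genes was 0.81 in the combination, 0.90 with romidepsin and 0.50 with afatinib. Over all tested genes the corresponding medians were -0.0050, -0.0025 and 0.0016. These 3 comparisons share the same 3 DMSO libraries. Nothing particular to the list can be read from the counts, since the list was chosen by name with earlier results of these data known.

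**Figure D1:**
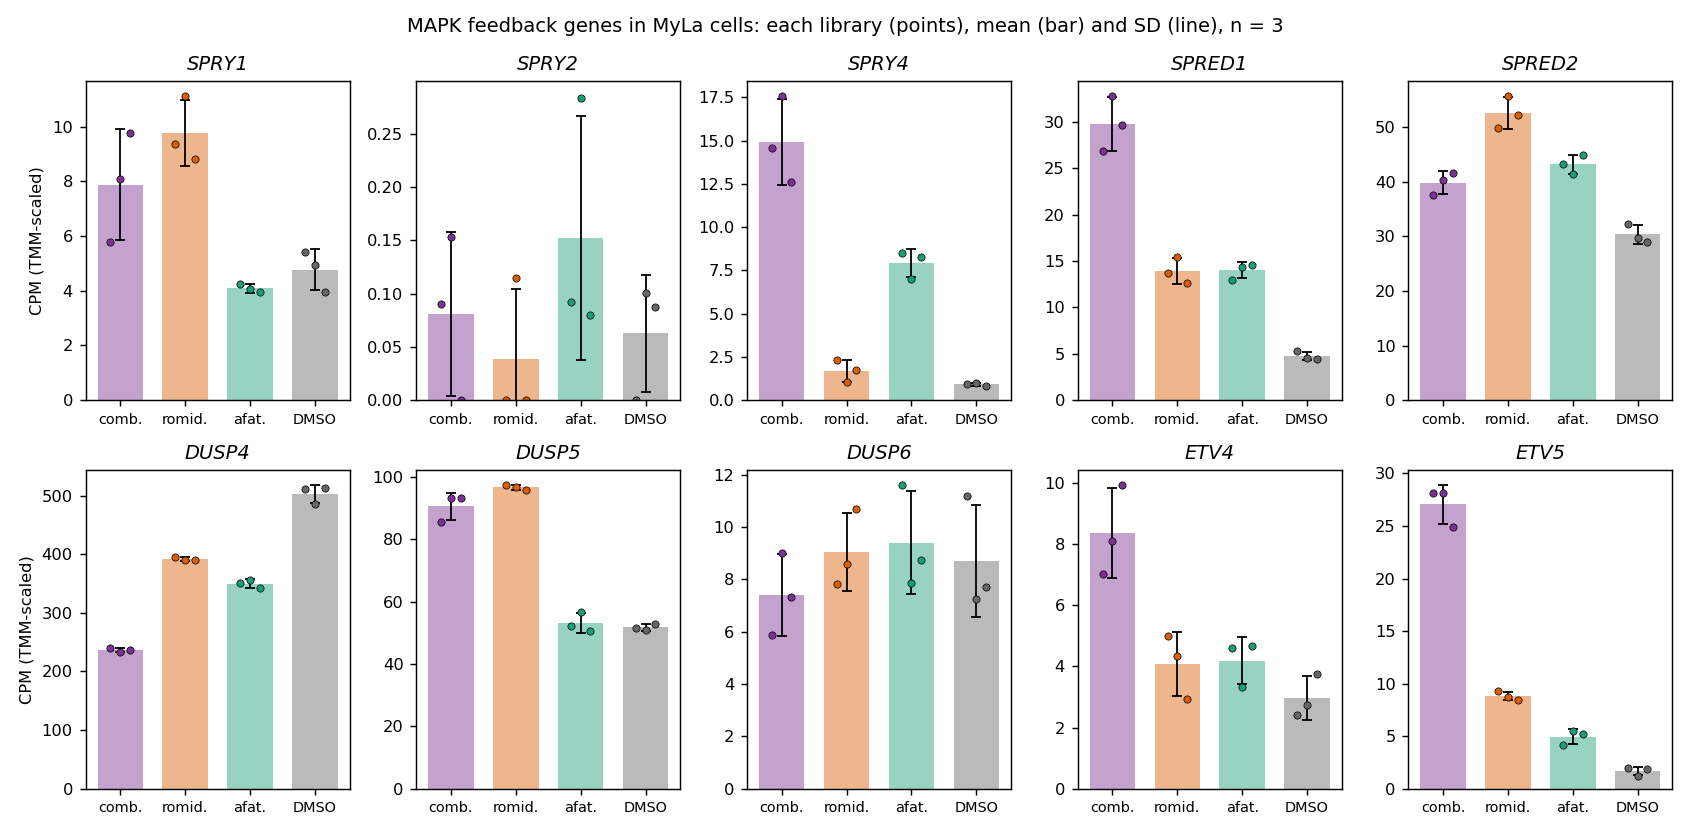
Level of each feedback gene in CPM (scaled by TMM factors) in the combination, romidepsin (romid.), afatinib (afat.) and DMSO groups; points are libraries, bars are means and lines are SDs of 3 libraries, and each panel has its own axis from 0. SPRY4, SPRED1 and ETV5 are highest in all 3 combination libraries, DUSP4 is lowest there, and SPRY2 stays at 3 counts or fewer in every library.

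SPRY4 encodes a Sprouty protein that blocks the step from receptor to RAS and RAF. It lies on the minus strand at chr5:142310427-142326455 (GRCh38, as in the count table). The combination libraries had 14.6, 17.6 and 12.6 CPM, romidepsin 2.32, 1.03 and 1.71 CPM, afatinib 8.48, 7.01 and 8.27 CPM, and DMSO 0.917, 1.01 and 0.788 CPM. The 4 groups thus stood in 4 separate ranges, with romidepsin and DMSO close together at the low end. The low values rest on few counts, 27, 9 and 21 with romidepsin and 11, 10 and 9 with DMSO.

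SPRY4 rose with afatinib alone by a log2 fold change of 3.12 (SE 0.26, edgeR adjusted p = 4.40e-14), which is 8.71 times the DMSO level. In the combination the log2 fold change was 4.03 (SE 0.24, edgeR adjusted p = 2.13e-20) against DMSO. It was 3.10 (SE 0.21, edgeR adjusted p = 3.81e-17) against romidepsin and 0.91 (SE 0.17, edgeR adjusted p = 4.03e-06) against afatinib. With romidepsin alone the log2 fold change was 0.94 (SE 0.35, edgeR adjusted p = 0.01619), and this call depended on single libraries. It was 0.65 (edgeR adjusted p = 0.1595) without romidepsin replicate 1 and 0.85 (edgeR adjusted p = 0.05648) without DMSO replicate 3. Without the 4 libraries with keratin reads it was 1.18 (edgeR adjusted p = 0.06626), and limma voom gave 0.86 (adjusted p = 0.07998).

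SPRED1 encodes the SPRED protein that brings neurofibromin, which switches RAS off, to the membrane. It lies on the plus strand at chr15:38252836-38357249. SPRED1 was at 26.9, 32.8 and 29.7 CPM in the combination, 13.7, 15.5 and 12.6 CPM with romidepsin, 12.99, 14.4 and 14.6 CPM with afatinib, and 5.25, 4.54 and 4.47 CPM with DMSO. Both single drugs gave overlapping ranges, above all DMSO libraries and below all combination libraries. The log2 fold change against DMSO was 1.53 (SE 0.15, edgeR adjusted p = 2.17e-12) with romidepsin, 1.55 (SE 0.15, edgeR adjusted p = 5.08e-12) with afatinib and 2.64 (SE 0.14, edgeR adjusted p = 1.96e-22) in the combination. The combination was also above romidepsin by 1.11 (SE 0.12, edgeR adjusted p = 4.43e-11) and above afatinib by 1.09 (SE 0.12, edgeR adjusted p = 1.85e-11) on the log2 scale.

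The upstream sequences of SPRY4 and SPRED1 are shown because both genes rose with afatinib, and that of DUSP6 because it is a classical ERK target that was not called in any comparison. They are the 250 bases before each RefSeq start (GRCh38.p14), printed 5′ to 3′ on the gene's strand, from a table of promoter windows. Windows of 6 of the 10 genes were used. Capitals mark a match to a searched motif. The SPRY4 window is chr5:142324248-142324497 (minus strand), the SPRED1 window chr15:38252586-38252835 (plus strand) and the DUSP6 window chr12:89352502-89352751 (minus strand).
SPRY4: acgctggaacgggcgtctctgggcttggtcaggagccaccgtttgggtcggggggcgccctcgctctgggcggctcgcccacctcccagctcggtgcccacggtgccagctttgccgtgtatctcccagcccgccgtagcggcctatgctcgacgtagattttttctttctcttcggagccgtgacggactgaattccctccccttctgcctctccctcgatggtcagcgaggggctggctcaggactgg
SPRED1: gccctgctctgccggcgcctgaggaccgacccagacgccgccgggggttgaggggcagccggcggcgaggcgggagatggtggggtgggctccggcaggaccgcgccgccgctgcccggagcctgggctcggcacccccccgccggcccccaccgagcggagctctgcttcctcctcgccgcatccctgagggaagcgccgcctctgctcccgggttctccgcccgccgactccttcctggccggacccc
DUSP6: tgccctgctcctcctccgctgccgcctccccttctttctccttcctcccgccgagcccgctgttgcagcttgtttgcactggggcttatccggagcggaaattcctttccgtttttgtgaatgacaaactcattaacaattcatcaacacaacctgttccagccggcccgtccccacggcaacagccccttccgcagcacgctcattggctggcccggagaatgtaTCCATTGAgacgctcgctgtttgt

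Motifs were searched on both strands, and a match only describes the letters. The Capicua octamers TGAATGAA, TGAATGGA, TCAATGAA and TCAATGGA occur in 3.18% of all 35116 windows of the table, and 1 stands in the DUSP6 window, 24 bases upstream of the start, as TCCATTGA on the gene's strand. The SPRY4 and SPRED1 windows hold none of these, nor the ETS core CCGGAA (14.5% of windows), the cyclic AMP response element TGACGTCA (1.65%), the CEBP-ATF element TGATGNAA (3.14%) or the AP-1 element TGANTCA (6.57%). The SPRED1 window has 78.4% G and C, the SPRY4 window 65.6% and the DUSP6 window 57.2%, against a median of 58.0% over all windows. Upstream windows of SPRY1 and SPRY2 each held an ETS core in 1 of their 2 and 3 windows, and 1 of 2 SPRED2 windows held a CEBP-ATF element.

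SPRED2 encodes a relative of SPRED1 with the same role as a brake on RAS, and lies on the minus strand at chr2:65310851-65432637. Its libraries were at 37.6, 40.3 and 41.6 CPM in the combination, 49.8, 55.7 and 52.3 CPM with romidepsin, 43.3, 41.5 and 44.97 CPM with afatinib, and 32.3, 29.8 and 29.0 CPM with DMSO. Every drug library was above every DMSO library, and the combination lay below romidepsin and overlapped afatinib. SPRED2 rose against DMSO by 0.79 (SE 0.09, edgeR adjusted p = 2.37e-11) with romidepsin, 0.51 (SE 0.09, edgeR adjusted p = 2.78e-06) with afatinib and 0.39 (SE 0.09, edgeR adjusted p = 7.04e-05) in the combination on the log2 scale. The combination was lower than romidepsin by a log2 fold change of -0.40 (SE 0.08, edgeR adjusted p = 6.02e-05). Against afatinib the difference was -0.12 with a 95% interval of -0.28 to 0.05.

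SPRY1 encodes a Sprouty protein that is known to restrain receptor signalling in T cells, and lies on the plus strand at chr4:123396795-123403760. It had 5.77, 8.10 and 9.78 CPM in the combination, 9.37, 11.1 and 8.81 CPM with romidepsin, 4.24, 4.07 and 3.94 CPM with afatinib, and 5.42, 4.95 and 3.94 CPM with DMSO. The groups with romidepsin were high and those without it low, with no overlap between them, while the combination overlapped romidepsin and afatinib overlapped DMSO. SPRY1 rose against DMSO by 1.02 (SE 0.19, edgeR adjusted p = 7.31e-06) with romidepsin and 0.73 (SE 0.19, edgeR adjusted p = 0.0006656) in the combination on the log2 scale. With afatinib the log2 fold change was -0.23, with a 95% interval of -0.66 to 0.20. The combination was above afatinib by 0.96 (SE 0.20, edgeR adjusted p = 2.76e-05). Against romidepsin it was -0.29 (edgeR adjusted p = 0.1626), or -0.48 (edgeR adjusted p = 0.04012) without combination replicate 3.

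SPRY2, the Sprouty family member that also binds the ubiquitin ligase CBL, lies on the minus strand at chr13:80335976-80341126. It had 1, 2 and 0 counts in the combination, 0, 1 and 0 with romidepsin, 1, 3 and 1 with afatinib, and 0, 1 and 1 with DMSO. No library exceeded the limit of 3 counts, so no fold change is given and a difference was not detectable at this depth.

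Among the phosphatases, DUSP4 and DUSP5 act on kinases in the nucleus and DUSP6 acts on ERK in the cytoplasm. DUSP4 (chr8:29333064-29350684, minus strand) was the most abundant of the 10 genes without drug and the only tested one called lower in any comparison with DMSO. It was at 239.9, 233 and 236 CPM in the combination, 395, 389.5 and 390.1 CPM with romidepsin, 351, 356 and 342 CPM with afatinib, and 510.5, 485 and 512.5 CPM with DMSO. The 4 groups did not overlap, and the combination was lowest. DUSP4 fell by 0.36 (SE 0.05, edgeR adjusted p = 3.22e-08) with romidepsin, by 0.52 (SE 0.05, edgeR adjusted p = 5.55e-12) with afatinib and by 1.09 (SE 0.05, edgeR adjusted p = 4.44e-24) in the combination on the log2 scale, each against DMSO. The combination level was 0.471 times that of DMSO. It was also below romidepsin by a log2 fold change of -0.73 (SE 0.05, edgeR adjusted p = 1.33e-16) and below afatinib by one of -0.56 (SE 0.05, edgeR adjusted p = 1.42e-13).

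DUSP5 (chr10:110497907-110511533, plus strand), a nuclear phosphatase specific for ERK, was high where romidepsin was present. Its libraries had 85.6, 93.2 and 93.2 CPM in the combination, 97.5, 96.7 and 96.0 CPM with romidepsin, 52.1, 56.8 and 50.5 CPM with afatinib, and 51.7, 50.9 and 53.0 CPM with DMSO. Afatinib and DMSO overlapped. DUSP5 rose against DMSO by 0.90 (SE 0.07, edgeR adjusted p = 9.93e-16) with romidepsin and 0.81 (SE 0.07, edgeR adjusted p = 1.77e-14) in the combination on the log2 scale. With afatinib the log2 fold change was 0.03, with a 95% interval of -0.11 to 0.18. The combination was above afatinib by 0.77 (SE 0.07, edgeR adjusted p = 7.95e-14). All combination libraries lay below all romidepsin libraries, but the log2 difference of -0.09 was not called (edgeR adjusted p = 0.2485). Its 95% interval was -0.23 to 0.04.

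DUSP6 (chr12:89347235-89352501, minus strand) gave no call in any of the comparisons. Its libraries had 5.86, 9.01 and 7.33 CPM in the combination, 7.82, 8.59 and 10.7 CPM with romidepsin, 11.6, 7.86 and 8.75 CPM with afatinib, and 11.2, 7.27 and 7.71 CPM with DMSO. All 4 groups overlapped. The 95% interval of the log2 fold change against DMSO was -0.60 to 0.13 in the combination, -0.32 to 0.41 with romidepsin and -0.26 to 0.46 with afatinib. Against afatinib the combination had a log2 fold change of -0.34 (edgeR adjusted p = 0.09638), which was -0.50 (edgeR adjusted p = 0.02352) without combination replicate 2 and -0.45 (edgeR adjusted p = 0.04347) without afatinib replicate 2. Of its exon bases 1105 (28.6%) overlap the antisense gene AC024909.1, and the counting did not use strand, so its level is uncertain. AC024909.1 itself had 33 counts in all 12 libraries together.

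The 3 phosphatases were also set against their sum. Per length of merged exons, DUSP4 made up 46.3% ± 1.74, DUSP5 50.9% ± 1.28 and DUSP6 2.73% ± 0.531 of their sum in the combination (SD, n = 3). In DMSO the corresponding shares were 75.3% ± 0.193, 22.3% ± 0.430 and 2.45% ± 0.557. The DUSP4 and DUSP5 shares did not overlap between the combination and DMSO libraries. The sum itself was 70.2 ± 1.68 CPM per kb in the combination, 94.4 ± 0.469 with romidepsin, 71.5 ± 2.12 with afatinib and 91.8 ± 2.78 with DMSO. DUSP5 exceeded DUSP4 in the combination (35.8 ± 1.74 against 32.5 ± 0.468 CPM per kb, with no overlap of libraries), whereas DUSP4 was the higher of both in the other 3 groups.

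ETV5 and ETV4 are PEA3-type ETS transcription factors downstream of ERK. ETV5 (chr3:186046314-186110318, minus strand) had 28.1, 28.1 and 24.9 CPM in the combination, 9.28, 8.71 and 8.48 CPM with romidepsin, 4.15, 5.49 and 5.22 CPM with afatinib, and 2.00, 1.21 and 1.84 CPM with DMSO. The 4 groups did not overlap. The DMSO values of ETV5 rest on few counts, 24, 12 and 21. ETV5 rose against DMSO by 2.36 (SE 0.21, edgeR adjusted p = 3.58e-14) with romidepsin, 1.53 (SE 0.23, edgeR adjusted p = 1.94e-07) with afatinib and 3.98 (SE 0.18, edgeR adjusted p = 4.14e-25) in the combination on the log2 scale. The combination was above romidepsin by 1.61 (SE 0.14, edgeR adjusted p = 3.98e-14) and above afatinib by 2.44 (SE 0.15, edgeR adjusted p = 5.95e-20). ETV5 shares 164 exon bases (2.84%) with DGKG, which had 1 count in all.

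ETV4 (chr17:43527844-43579620, minus strand) was called in the combination and not with either drug alone. Its libraries had 7.03, 8.10 and 9.93 CPM in the combination, 4.98, 4.35 and 2.94 CPM with romidepsin, 4.61, 3.31 and 4.66 CPM with afatinib, and 2.42, 2.73 and 3.77 CPM with DMSO. All combination libraries were above all others, and the other 3 groups overlapped. The log2 fold change in the combination was 1.49 (SE 0.22, edgeR adjusted p = 4.21e-08) against DMSO, 1.04 (SE 0.21, edgeR adjusted p = 3.63e-05) against romidepsin and 0.99 (SE 0.21, edgeR adjusted p = 3.63e-05) against afatinib.

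With a single drug the ETV4 result depended on single libraries and, with afatinib, on the scaling. With romidepsin the log2 fold change against DMSO was 0.45 (edgeR adjusted p = 0.1073), but 0.66 without romidepsin replicate 3 (edgeR adjusted p = 0.0276) and 0.66 without DMSO replicate 3 (edgeR adjusted p = 0.03715). With afatinib it was 0.50 (edgeR adjusted p = 0.08715), but 0.64 without afatinib replicate 2 (edgeR adjusted p = 0.04623), 0.71 without DMSO replicate 3 (edgeR adjusted p = 0.03258) and 0.60 with library sizes alone as the scale (edgeR adjusted p = 0.037). ETV4 shares 68 exon bases (1.93%) with the antisense gene DHX8, whose reads were not separated by strand. DHX8 had 11167 counts in all 12 libraries together, against 688 for ETV4, so the level of ETV4 is uncertain. The part of DHX8 reads in it was not tested.

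**Figure D2:**
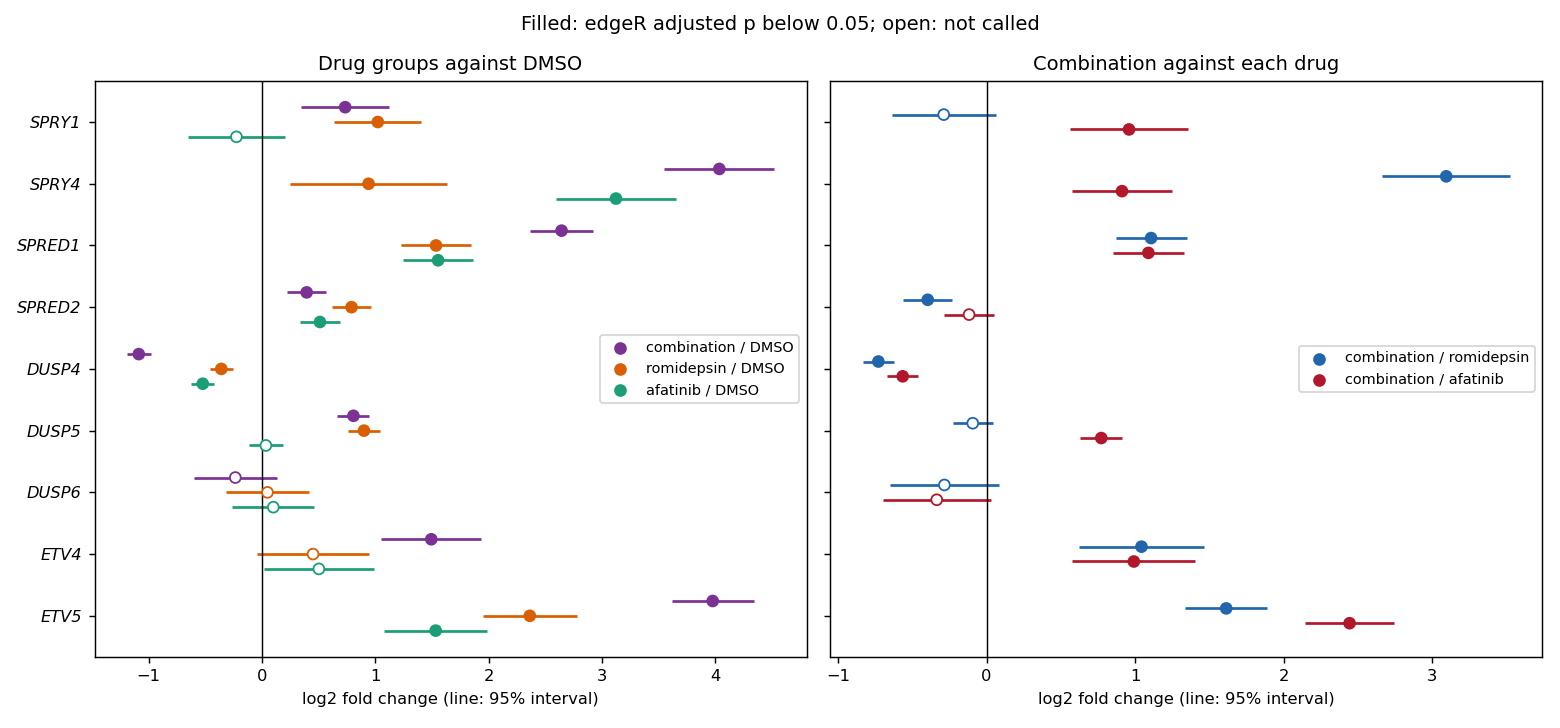
Log2 fold changes of the 9 tested feedback genes with 95% intervals (lines), for each drug group against DMSO (left) and the combination against each drug (right); filled points passed an edgeR adjusted p of 0.05. DUSP4 is the only gene left of 0 against DMSO with filled points, and DUSP6 has open points only.

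The combination was next compared with each single drug over the whole group. Against romidepsin, 4 of the 9 genes were higher (SPRY4, SPRED1, ETV4 and ETV5), 2 were lower (SPRED2 and DUSP4) and 3 were not called, beside 54.3% of all tested genes called (25.1% higher and 29.2% lower). Against afatinib, 6 of the 9 were higher (SPRY1, SPRY4, SPRED1, DUSP5, ETV4 and ETV5), 1 was lower (DUSP4) and 2 were not called, beside 69.2% of all tested genes (33.4% higher and 35.8% lower). The median log2 fold change of the 9 genes was -0.09 against romidepsin and 0.91 against afatinib, and that of all tested genes was -0.03 and -0.02. Both comparisons share the combination libraries.

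Whether the drugs combined as the product of their single folds was tested by an interaction term, the log2 change in the combination minus the sum of both single-drug log2 changes. Of the 9 genes 2 were called, both below the product (SPRED2 and DUSP4), beside 30.2% of all tested genes (11.7% above and 18.5% below). SPRED2 stood at 39.9 CPM in the combination where the product of the folds gave 75.0 CPM, an interaction of -0.91 (SE 0.12, edgeR adjusted p = 3.52e-08). DUSP4 stood at 236.5 CPM against 272.5 CPM from the product, an interaction of -0.20 (SE 0.07, edgeR adjusted p = 0.02798). The DUSP4 call was lost without afatinib replicate 1, 2 or 3 (edgeR adjusted p = 0.09438, 0.06832 and 0.06925), without DMSO replicate 2 (edgeR adjusted p = 0.06302) and without the 4 libraries with keratin reads (edgeR adjusted p = 0.1447). It was also lost with upper quartile factors (-0.13, edgeR adjusted p = 0.1646), relative log expression factors (-0.17, edgeR adjusted p = 0.09485) and no low-count filter (-0.16, edgeR adjusted p = 0.2843).

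The genes with the largest folds lay close to the product, within wide intervals. SPRY4 stood at 14.9 CPM against 14.8 CPM from the product, with an interaction of -0.03 and a 95% interval of -0.65 to 0.59. ETV5 stood at 27.1 CPM against 25.9 CPM, with an interaction of 0.08 and a 95% interval of -0.51 to 0.67. SPRED1 stood at 29.8 CPM against 41.0 CPM, with an interaction of -0.45 (edgeR adjusted p = 0.08115), or -0.52 (edgeR adjusted p = 0.04832) without combination replicate 2. ETV4 stood at 8.35 CPM against 5.78 CPM, with an interaction of 0.54 and a 95% interval of -0.11 to 1.19. For SPRY1, DUSP5 and DUSP6 the observed level was 0.943, 0.914 and 0.759 times the product, and none was called.

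**Figure D3:**
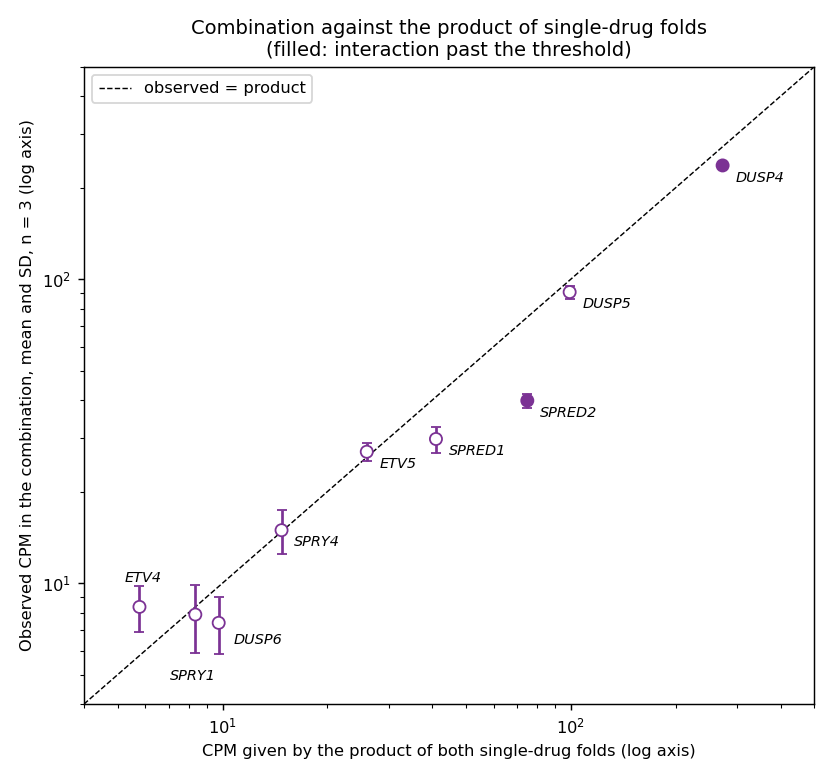
Observed CPM of each tested feedback gene in the combination (mean and SD of 3 libraries) against the CPM that the product of both single-drug folds gives, on log axes; the dashed line marks equality and filled points passed the interaction test at an edgeR adjusted p of 0.05. SPRED2 (39.9 against 75.0 CPM) lies farthest below the line, and SPRY4 and ETV5 lie on it or next to it.

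Levels were compared between the genes as CPM per kb of merged exons. In the combination the order was DUSP5 (35.8), DUSP4 (32.5), SPRED2 (7.24), ETV5 (4.69), SPRED1 (3.84), ETV4 (2.38), SPRY4 (2.27), SPRY1 (1.99), DUSP6 (1.92) and SPRY2 (0.0252). The neighbours from ETV4 to DUSP6 in that order overlapped in their libraries, and the other neighbours did not. In DMSO the order was DUSP4 (69.1), DUSP5 (20.5), SPRED2 (5.51), DUSP6 (2.26), SPRY1 (1.20), ETV4 (0.845), SPRED1 (0.614), ETV5 (0.292), SPRY4 (0.138) and SPRY2 (0.0196), where SPRY1 and ETV4 were the only neighbours that overlapped. DUSP6 thus stood below the other 8 tested genes in the combination and above 5 of them in DMSO, although its own level was not called different.

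Ratios within pairs of relatives were computed as a description. ETV5 per ETV4 was 2.03 ± 0.461 in the combination, 1.37 ± 0.340 with romidepsin, 0.746 ± 0.237 with afatinib and 0.357 ± 0.128 with DMSO (per length, mean and SD of 3 libraries). The combination and romidepsin libraries overlapped in this ratio, at 1.527 to 2.436 and 1.134 to 1.759. SPRED1 per SPRED2 was 0.531 ± 0.0403 in the combination, 0.188 ± 0.0141 with romidepsin, 0.230 ± 0.0167 with afatinib and 0.111 ± 0.00393 with DMSO. SPRY4 per SPRY1 was 1.21 ± 0.385 in the combination, 0.108 ± 0.0475 with romidepsin, 1.17 ± 0.119 with afatinib and 0.115 ± 0.0115 with DMSO. It was thus high in both groups with afatinib and low in both without it. Averaged over all 12 libraries, DUSP4 and DUSP5 stood at percentiles 95.6 and 90.9 of all tested genes per length, SPRED2 at 66.4 and the other tested genes between 22.3 and 38.2.

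**Figure D4:**
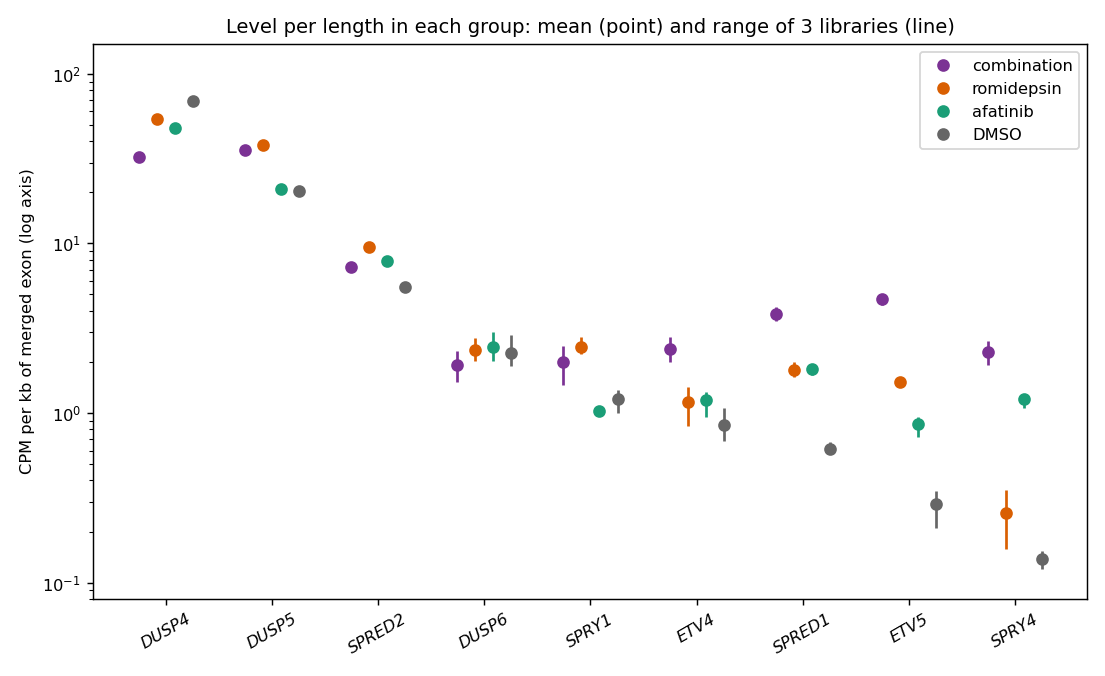
Level per length (CPM per kb of merged exon, log axis) of the 9 tested feedback genes in each group, ordered by their DMSO level; points are means and lines are the range of 3 libraries. SPRY2 is not drawn because libraries were at 0, and the spread between groups is widest at the right, for SPRY4 and ETV5.

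Genes with the most similar pattern were sought by the root mean square difference of centred log2 CPM over the 12 libraries, among 10184 genes with a mean of at least 5 CPM, as a description. PPP1R15A (0.44) and SESN2 (0.44) came closest to SPRY4, and ANO10 (0.16) and FAM102A (0.20) came closest to SPRED1. RTCA-AS1 (0.23) and INSIG1 (0.29) came closest to ETV5, and PTPRVP (0.22) and TTLL11 (0.23) to ETV4. WDR44 (0.16) and OSTF1 (0.16) came closest to SPRY1, and BLMH (0.067) and RNF26 (0.067) to DUSP4. Between the feedback genes themselves the smallest difference was that of SPRY1 and DUSP5 (0.22), and the 4 group means of SPRED2, DUSP5 and DUSP6 spanned less than 1 on the log2 scale and were not matched.

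The counts for the pathway lists below are given for the combination, romidepsin and afatinib against DMSO, where 74.3%, 62.6% and 45.4% of all tested genes were called, with medians of -0.0050, -0.0025 and 0.0016.

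Other MAPK phosphatases were followed by a list of 7 genes, of which 5 were tested: 4 rose and 1 fell in the combination, 2 rose and 1 fell with romidepsin, and 0 rose and 1 fell with afatinib, each against DMSO, with median log2 fold changes of 1.06, 0.74 and -0.11. The 3 of 5 called with romidepsin are close to the 62.6% of all tested genes. The combination calls of DUSP1 (lower) and DUSP8 (higher) rest on few counts and overlapping libraries, each at an edgeR adjusted p of 0.049. DUSP1 averaged 0.440 CPM against 1 CPM with DMSO, and DUSP8 1.68 against 0.832 CPM. The median of 1.06 is the value of DUSP8, and that of 0.74 the value of DUSP1, which was not called with romidepsin. DUSP2, an inducible nuclear phosphatase of activated lymphocytes, was at 349, 341 and 396 CPM in the combination, 480.1, 437 and 457 CPM with romidepsin, 42.3, 37.6 and 36.1 CPM with afatinib, and 83.3, 89.3 and 83.8 CPM with DMSO. Its afatinib libraries lay below all DMSO libraries, whereas those of SPRY4 lay above. The log2 fold change was 2.08 in the combination (edgeR adjusted p = 9.28e-32), 2.42 with romidepsin (edgeR adjusted p = 6.16e-34) and -1.14 with afatinib (edgeR adjusted p = 2.43e-18).

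Of 17 other ERK-driven transcripts listed, 14 were tested. Of these 8 rose and 2 fell in the combination, 9 rose and 1 fell with romidepsin, and 0 rose and 6 fell with afatinib, each against DMSO, with median log2 fold changes of 0.49, 0.61 and -0.32. The share called in either direction was close to that of all tested genes in the combination (10 of 14 beside 74.3%) and with afatinib (6 of 14 beside 45.4%). EGR1, an immediate early transcription factor, was at 21.7, 19.6 and 26.5 CPM in the combination, 30.9, 27.3 and 39.4 CPM with romidepsin, 4.15, 2.37 and 2.65 CPM with afatinib, and 25.6, 21.2 and 18.8 CPM with DMSO. EGR1 therefore was lowest in all 3 afatinib libraries, where SPRY4, SPRED1 and ETV5 were above DMSO. Its log2 fold change with afatinib was -2.84 (SE 0.18, edgeR adjusted p = 1.03e-16), and its interaction was 2.31 (SE 0.23, edgeR adjusted p = 1.18e-10). JUNB, a subunit of AP-1, had a log2 fold change of -1.08 with afatinib (edgeR adjusted p = 8.42e-22). LIF, a cytokine gene, had -4.48 in the combination (edgeR adjusted p = 1.42e-44). Among the genes that rose there, FOS had 3.66 (edgeR adjusted p = 1.34e-21) and EGR2 3.05 (edgeR adjusted p = 2.69e-18). With romidepsin EGR2 had 3.96 (edgeR adjusted p = 3.07e-23) and FOS 3.01 (edgeR adjusted p = 3.65e-17). The DMSO values rest on few counts, 14, 19 and 15 for FOS and 23, 23 and 10 for EGR2. The Sprouty, SPRED and ETV genes and these transcripts were not compared with each other by a test.

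**Figure D5:**
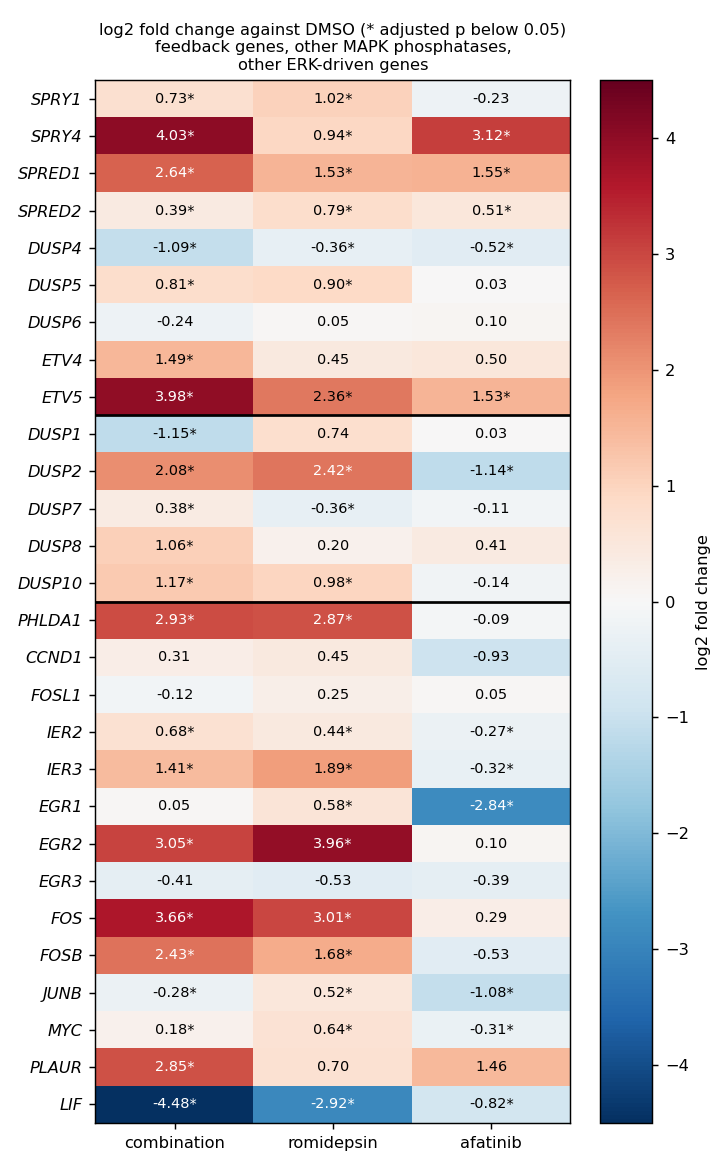
Log2 fold changes against DMSO in the combination, romidepsin and afatinib groups for the 9 tested feedback genes (top), the 5 other tested MAPK phosphatases (middle) and the 14 other tested ERK-driven genes (bottom); an asterisk marks an edgeR adjusted p below 0.05. In the afatinib column SPRY4 (3.12), SPRED1 (1.55) and ETV5 (1.53) are high, while EGR1 (-2.84), DUSP2 (-1.14) and JUNB (-1.08) are low.

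Regulators of the ETV genes and proteins were examined because Capicua represses their transcription. CIC, which encodes Capicua, fell by 0.17 (SE 0.06, edgeR adjusted p = 0.0146) with afatinib on the log2 scale. It rose by 0.14 (SE 0.06, edgeR adjusted p = 0.03598) with romidepsin, and its log2 fold change in the combination was 0.12 (edgeR adjusted p = 0.05097). ERF, an ETS repressor that ERK removes from the nucleus, averaged 108.5 ± 5.09 CPM in the combination, 73.5 ± 7.13 CPM with romidepsin, 23.3 ± 1.66 CPM with afatinib and 52.7 ± 0.640 CPM with DMSO (SD, n = 3 each). Its log2 fold change was 1.04 in the combination (edgeR adjusted p = 1.52e-17), 0.48 with romidepsin (edgeR adjusted p = 3.34e-07) and -1.18 with afatinib (edgeR adjusted p = 4.15e-16). Of the 6 regulators, 1 rose and 0 fell in the combination, 4 rose and 0 fell with romidepsin, and 0 rose and 2 fell with afatinib.

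Upstream of the feedback genes, the RAS to ERK core was called in both directions, about as often as all tested genes. Of 22 tested of 24 genes, 8 rose and 8 fell in the combination, 9 rose and 6 fell with romidepsin, and 5 rose and 6 fell with afatinib, beside 74.3%, 62.6% and 45.4% of all tested genes called. In the combination ARAF, a RAF kinase, had a log2 fold change of -2.12 (edgeR adjusted p = 9.35e-27) and NRAS one of -1.57 (edgeR adjusted p = 1.05e-24). With afatinib SOS2, a RAS exchange factor, rose by 1.09 (edgeR adjusted p = 3.23e-10). Of 14 other RAS and receptor brakes 9 were tested, and 2 rose and 3 fell in the combination, 3 rose and 2 fell with romidepsin, and 2 rose and 3 fell with afatinib. SPRED3, the relative of SPRED1 and SPRED2, rose by 0.87 (SE 0.16, edgeR adjusted p = 1.02e-05) with afatinib on the log2 scale.

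Kinases that ERK activates, with SRF and its partners, were tested for 11 of 12 genes: 6 rose and 3 fell in the combination, 7 rose and 3 fell with romidepsin, and 1 rose and 4 fell with afatinib, beside 74.3%, 62.6% and 45.4% of all tested genes called. The shares in the combination and with afatinib were close to those of all tested genes. RPS6KA2, a ribosomal S6 kinase, had log2 fold changes of 3.58 in the combination (edgeR adjusted p = 6.55e-28), 2.46 with romidepsin (edgeR adjusted p = 9.41e-20) and 0.92 with afatinib (edgeR adjusted p = 2.22e-05). Among the receptor targets of afatinib, EGFR had at most 13 counts, ERBB3 at most 18 and ERBB4 at most 3 in any library, and none of these 3 was tested. ERBB2 averaged 8.72 ± 1.15 CPM in the combination, 5.57 ± 1.35 CPM with romidepsin, 11.1 ± 0.783 CPM with afatinib and 4.99 ± 1.27 CPM with DMSO (SD, n = 3 each). ERBB2 rose by 0.81 (edgeR adjusted p = 0.0001745) in the combination and 1.16 (edgeR adjusted p = 9.93e-07) with afatinib, and was not called with romidepsin (0.19). Of the 15 ERBB receptors and ligands 4 were tested, of which 2 rose in the combination, 1 with romidepsin and 3 with afatinib, and 0 fell.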

How the data were processed

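Total RNA of MyLa cells was sequenced in 12 libraries, 3 per treatment, per the labels. The deposited table holds whole-number counts per gene name, made with featureCounts 2.0.0 and GENCODE 31 from read pairs with both ends mapped and without a strand option, per the file headers. The submitters' processing notes name STAR 2.7.9a, DESeq2 1.38.1 and the build GRCh38.p12. Depth is 8972228 to 12696653 counts per library. A second deposited table, treated as a score, gave no result: over 13302 genes its rank correlation with the counts was 0.022 to 0.049 per library, and with their alphabetical order 1.000. The merged exon length per gene was taken from the count table.

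Genes were filtered with filterByExpr by group (16208 kept) and scaled by TMM factors, which CPM values use. The test was edgeR 4.0.16 in R 4.3.3 (glmQLFit with robust settings, glmQLFTest) on 4 group means over all 12 libraries, two-sided, with a threshold of 0.05 on p adjusted after Benjamini and Hochberg over the whole table. Standard errors are the log2 fold change divided by the root of the F statistic. Log2 CPM used a prior count of 2. Named genes were the 10 members and, per pathway list and comparison, up to 3 called genes with the largest fold and at least 5 CPM, or else the most abundant member. Values of such a gene in its other groups, the untested ERBB receptors and the marker genes were added. The members and lists were chosen with earlier results of these data known. Alternatives were limma voom (3.58.1), DESeq2 1.42.0, 3 other scalings, 2 other filters, a replicate block, fits on fewer libraries and each library left out. The test was tried on simulated counts. Some genes are not reported here. Promoter windows came from RefSeq (GRCh38.p14).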

Additional observations from a re-analysis of the deposited data

Results flagged for a closer look

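In 2 of the 9 tested feedback genes the effect of romidepsin differed with and without afatinib by the interaction test. This count stands beside 30.2% of all tested genes called in the interaction. SPRED2 had a difference of -0.91 on the log2 scale (edgeR adjusted p = 3.52e-08): its log2 fold change was -0.12 for the combination against afatinib (edgeR adjusted p = 0.2077) and 0.79 for romidepsin against DMSO (edgeR adjusted p = 2.37e-11). DUSP4 had a difference of -0.20 (edgeR adjusted p = 0.02798), with -0.56 for the combination against afatinib and -0.36 for romidepsin against DMSO. Its call did not hold under 8 of the 21 alternatives that apply to the interaction. Groups of 3 libraries were too small for a search for single outlying libraries.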

How the results depend on the processing

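Results were recomputed under 22 alternatives (21 for the interaction, to which a fit on only the groups compared does not apply), 12 of which left out 1 library. No log2 fold change of a called gene reversed, and of the recomputed fold changes 1158 kept their side of the threshold, 12 lost significance and 9 gained it. The number of feedback genes called in the interaction was 2, but 1 with upper quartile factors, 1 with relative log expression factors, 1 with no low-count filter and 1 without the 4 libraries with keratin reads, and 1 to 3 with a library left out. With a library left out, the counts called were 6 to 8 (romidepsin), 5 to 6 (afatinib) and 8 to 8 (combination) against DMSO, 6 to 7 for the combination against romidepsin and 7 to 8 against afatinib. Replicate numbers did not pair the libraries as a whole: 3 of 18 same-number pairs had a correlation of deviations over 0.1 (-0.23 to 0.26). The highest, 0.26, was that of combination and romidepsin replicate 2. By a strict count, 0 of 12 libraries correlated best with their own number in every other group at once. The replicate block changed no call of a feedback gene, with 7, 5, 8, 6, 7 and 2 called in these comparisons and the interaction. Scaling moved the median of all genes by over 0.1 in the combination against DMSO only, by 0.123 with upper quartile factors and 0.104 with library size only. Without a filter SPRY2 had edgeR adjusted p values of 0.7052 to 0.9999. The causes of these changes were not tested. Low counts limit SPRY4 in romidepsin and DMSO, ETV5 in DMSO, ETV4 and SPRY2.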
